A study of Rattus norvegicus with 15 samples.

Results

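The levels of 9 genes that control red cell formation were followed in rat femur RNA: the transcription factors Gata1, Klf1, Tal1, Nfe2 and Gfi1b, their cofactors Zfpm1 and Lmo2, the erythropoietin receptor Epor, and the nuclear protein Hemgn. The members were chosen by gene name, with earlier results of these data known, and all 9 were found among the 30454 genes of the tables. All 9 also passed the filter on low values (a mean FPKM of at least 1), as did 14416 genes in all. RNA was sequenced in 15 libraries of 5 groups, with 3 libraries each, from femurs of female SD (Sprague-Dawley) rats. The labels give an age of 8 weeks for the rats as housed and none at sampling, which came after the recovery and treatment. Sham rats had fat tissue removed and received saline, while OVX rats lost both ovaries and received saline. The 3 other groups also lost both ovaries and then received plant extracts: Juglans regia L. (walnut) at 1.6 g per kg per day in group J, Psoralea corylifolia Linn. at 2.4 in group P, and the combination at 4.0 in group PJ. Treatment lasted 8 weeks and began after a 6-week recovery from surgery. By its title, the study concerns osteoporosis brought on by removing the ovaries. The labels do not say how much of each extract the combination held, whether each library came from a separate rat, or whether marrow was left in the bone. The p-values therefore measure the spread between these libraries, which may be technical.

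Red cells form in the marrow from progenitors that pass through stages set by a small network of transcription factors. Gata1 and Tal1 occupy many of the same control regions, held together by the adaptors Lmo2 and Ldb1, and Klf1 switches on adult globin and other late genes. Signals from the hormone erythropoietin, received by Epor and passed on by the kinase Jak2 and the factor Stat5, keep the young red cells alive. Several of these genes also act outside red cells: Gata1, Nfe2, Gfi1b and Zfpm1 in megakaryocytes, the cells that make platelets, Gata1 in mast cells and eosinophils, and Tal1 and Lmo2 in vessel cells and blood stem cells.

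FPKM (fragments per kilobase and library size) corrects for gene length, so levels of different genes can be compared on it. Library totals recovered from the values ran from 34351000 (Sham 3) to 61025000 (PJ 2) reads, and the members held from 28 reads (Gfi1b in Sham 2) to 40782 reads (Hemgn in OVX 2). Of each library's summed FPKM, 11.2% to 35.9% came from mitochondrial genes and 0.084% to 8.25% from globin genes. The bone markers checked were present in every library. Their summed FPKM was 559.9 to 824.1 in OVX, below all libraries of the other groups. It was 1605 to 6291 in Sham, 2854 to 3079 in J, 1776 to 11921 in P and 2101 to 7855 in PJ. Cartilage markers summed to 2517 to 5093 FPKM in the Sham libraries and to 1.86 to 3.06 in the OVX libraries, so the cartilage share of the RNA differed between these groups. They summed to 2.69 to 157.1 in J, 27.5 to 2403 in P and 4.90 to 696.2 in PJ. P 2 and PJ 3 stood apart within their groups: P 2 was the highest P library for 8 of the 9 members, all but Lmo2, and PJ 3 was the highest PJ library for all 9. Fits without both of them were added after the data were seen. P 2 also had the highest mitochondrial share and the highest cartilage sum of its group, 2403 FPKM against 27.5 and 75.5. PJ 3 had the lowest cartilage sum of its group, 4.90 FPKM against 512.8 and 696.2. The bone sum was the lowest of the group in both: 1776 FPKM in P 2 against 11921 and 6988, and 2101 in PJ 3 against 7855 and 7008. Sham 3 differed from Sham 1 and Sham 2 as well, and was the highest Sham library for 6 of the 9 members. Its bone markers summed to 6291 FPKM against 2158 and 1605, and its muscle markers to 24.0 against 299.5 and 214.0. Its globin share was 0.534% against 0.201% and 0.084%. In RNA of a whole tissue, fewer cells of a type and less RNA per cell cannot be told apart.

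The RefSeq windows of 250 bases before each annotated start of the members were searched for short words that some of these factors bind. Windows of build GRCr8 were given for 7 members, with a pair of windows for Hemgn, and Nfe2 and Lmo2 had no entry. The words AGATAA or TGATAA (bound by GATA factors), CACCC (bound by Klf1 and related factors) and TGAGTCA (bound by Nfe2 and also by AP-1 factors) were read on both strands. A GATA word occurred before Klf1, Gfi1b, Hemgn and Epor, in 4 of the members' 8 windows, and in 16.9% of all 33469 windows of that length. CACCC was found in 5 of the 8 windows (before Gata1, Klf1, Gfi1b, Zfpm1 and Epor) and in 49.2% of all windows, and TGAGTCA in 0 of the 8 and in 4.05% of all windows. The 4 windows with a GATA word are shown so that the place of the word can be read. The windows of Gata1, Tal1 and Zfpm1 held no GATA word. The levels of Tal1 and Zfpm1 moved with those of Gata1 (Pearson's r = 0.98 and 0.97). So did those of the genes with a GATA word, with r = 0.98 for Epor, 0.99 for Gfi1b and Hemgn, and above 0.99 for Klf1. Whether these words bear on the levels was not tested. Each is written 5′ to 3′ on the strand of the gene, with the GATA word in capitals, which on the other strand reads TTATCA or TTATCT. The word lay 21 to 26 bases before the start of Klf1, 151 to 156 before that of Gfi1b, 109 to 114 before that of Epor, and 48 to 53 and 89 to 94 before that of Hemgn. A match of letters is a description and not a measured binding site.
Klf1, chr19:40158652-40158901, minus strand: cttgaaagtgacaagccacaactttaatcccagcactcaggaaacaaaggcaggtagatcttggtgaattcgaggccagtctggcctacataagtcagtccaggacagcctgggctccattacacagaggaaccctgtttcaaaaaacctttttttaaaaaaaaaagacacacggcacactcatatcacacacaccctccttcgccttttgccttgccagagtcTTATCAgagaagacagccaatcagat
Gfi1b, chr3:32350902-32351151, minus strand: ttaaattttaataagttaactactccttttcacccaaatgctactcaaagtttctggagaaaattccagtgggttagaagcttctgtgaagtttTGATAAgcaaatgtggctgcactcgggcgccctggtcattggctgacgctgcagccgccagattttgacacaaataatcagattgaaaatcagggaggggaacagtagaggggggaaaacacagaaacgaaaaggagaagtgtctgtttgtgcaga
Epor, chr8:28770323-28770572, minus strand: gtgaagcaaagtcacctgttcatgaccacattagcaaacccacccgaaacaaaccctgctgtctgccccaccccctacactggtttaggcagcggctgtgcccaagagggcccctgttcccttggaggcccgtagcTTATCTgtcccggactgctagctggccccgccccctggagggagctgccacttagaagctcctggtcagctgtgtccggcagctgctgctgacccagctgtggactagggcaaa
Hemgn, chr5:65485822-65486071, minus strand: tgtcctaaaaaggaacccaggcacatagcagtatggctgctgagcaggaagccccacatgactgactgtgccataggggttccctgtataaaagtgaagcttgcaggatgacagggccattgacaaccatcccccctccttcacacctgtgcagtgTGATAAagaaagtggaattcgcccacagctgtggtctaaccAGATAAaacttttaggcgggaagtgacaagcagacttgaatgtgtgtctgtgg

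Gata1 (ENSRNOG00000047663), the zinc finger factor that red cells need to mature, was lowest in the Sham femurs and highest in OVX. It stood at 0.83, 0.80 and 1.75 FPKM in Sham 1 to 3, at 96.0, 80.0 and 76.6 in OVX and at 37.6, 33.5 and 41.2 in J. In P it stood at 11.5, 21.9 and 11.0 FPKM and in PJ at 4.43, 1.93 and 13.3. No Sham, OVX or J library overlapped with another group, while P and PJ overlapped through PJ 3. The mean level was 1.13 ± 0.54 FPKM (SD, n = 3) in Sham and 84.2 ± 10.3 in OVX, a ratio of 74.7.

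Klf1 (ENSRNOG00000003443), an activator of adult beta-globin, followed the same order. Its 3 values were 1.76, 1.29 and 3.04 FPKM in Sham, 155.1, 144.4 and 106.8 in OVX and 54.3, 65.4 and 65.3 in J. They were 15.4, 35.7 and 18.6 FPKM in P and 5.67, 3.09 and 21.2 in PJ. The lowest OVX library was thus above every library of the other groups, and the lowest PJ library was just above the highest Sham library. Within PJ the standard deviation was 98.2% of the mean, compared with 18.7% in OVX.

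Tal1 (ENSRNOG00000025051), a helix-loop-helix factor that binds DNA together with partners such as Tcf3, had a higher level in Sham than Gata1 or Klf1 in each of the 3 libraries. It measured 7.03, 8.56 and 5.31 FPKM in Sham, 163.7, 145.2 and 108.6 in OVX and 59.7, 57.5 and 77.3 in J. In P it measured 22.6, 41.2 and 20.9 FPKM and in PJ 9.99, 7.11 and 28.5. PJ 2 lay within the range of the Sham libraries, so these groups overlapped for Tal1, unlike for Gata1 and Klf1.

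Nfe2 (ENSRNOG00000036837), a subunit of a factor needed for platelet formation that also acts at the globin genes, showed a mean of 4.13 ± 1.48 FPKM in Sham and 121.9 ± 9.45 in OVX (SD, n = 3). The single values were 2.93, 3.68 and 5.78 in Sham, 128.3, 126.4 and 111.1 in OVX, 70.5, 65.8 and 85.9 in J, 21.8, 36.5 and 24.0 in P, and 12.8, 9.43 and 33.9 in PJ. P 2 and PJ 3 were again the high libraries of their groups, and P and PJ overlapped.

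Gfi1b (ENSRNOG00000011353), a repressor that works with the histone demethylase Kdm1a, was the member with the lowest mean FPKM in Sham (0.94 ± 0.72, SD, n = 3). Its values were 0.60, 0.45 and 1.76 FPKM in Sham, 70.1, 67.4 and 63.1 in OVX, 31.0, 27.4 and 27.0 in J, 9.42, 28.4 and 9.11 in P, and 4.69, 2.05 and 17.0 in PJ. P 2 at 28.4 FPKM lay inside the range of J, whereas P 1 and P 3 lay far below it. The ratio of mean FPKM between OVX and Sham was 71.2, and 126.8 without Sham 3.

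Zfpm1 (ENSRNOG00000043077), also known as Fog1, binds Gata1 and tunes its action at many genes. It spanned a narrower range of levels: 6.34, 9.81 and 9.69 FPKM in Sham, 70.4, 72.9 and 58.8 in OVX, 35.9, 31.1 and 32.9 in J, 14.3, 24.0 and 18.9 in P, and 14.2, 11.5 and 23.1 in PJ. The ratio of the mean FPKM of OVX to that of Sham was 7.82. Sham, OVX and J did not overlap with one another or with P and PJ, which overlapped.

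Lmo2 (ENSRNOG00000009401), the adaptor that joins Tal1 to Gata1, differed from the other members in that it was already well expressed in Sham, at 22.5, 32.4 and 29.2 FPKM. It measured 52.4, 46.2 and 48.0 in OVX, 35.3, 61.5 and 42.7 in J, 33.7, 37.8 and 41.3 in P, and 31.7, 35.1 and 46.8 in PJ. J 2 was above all OVX libraries while J 1 and J 3 were below them, and PJ 1 lay within the Sham range. The ratio of mean FPKM between OVX and Sham was 1.74.

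Epor (ENSRNOG00000012619) had 2.72, 5.53 and 6.60 FPKM in Sham, 85.7, 76.6 and 67.7 in OVX and 42.0, 38.5 and 56.9 in J. It had 12.5, 30.1 and 13.6 FPKM in P and 8.44, 9.53 and 23.3 in PJ. The receptor was 15.5 times as high in OVX as in Sham by mean FPKM, and even PJ 1, the lowest PJ library, exceeded the highest Sham library. Its hormone was hardly seen in femur: Epo, which is made mainly by the kidney in adults, reached at most 0.08 FPKM and 4 reads in any library, and it was listed at 0 in 6 libraries.

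Hemgn (ENSRNOG00000009436), a nuclear protein of blood-forming cells whose gene is a known Gata1 target, had the widest range of FPKM. Its values were 1.64, 1.27 and 7.39 FPKM in Sham, 319.3, 354.7 and 254.5 in OVX, 133.6, 168.7 and 150.8 in J, 39.6, 90.9 and 45.2 in P, and 14.9, 5.85 and 38.7 in PJ. The ratio of mean FPKM between OVX and Sham was 90.2, and 213.0 without Sham 3, the highest Sham library. PJ 2 at 5.85 FPKM lay below Sham 3 at 7.39, and every PJ library was below every P library.

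**Figure D1:**
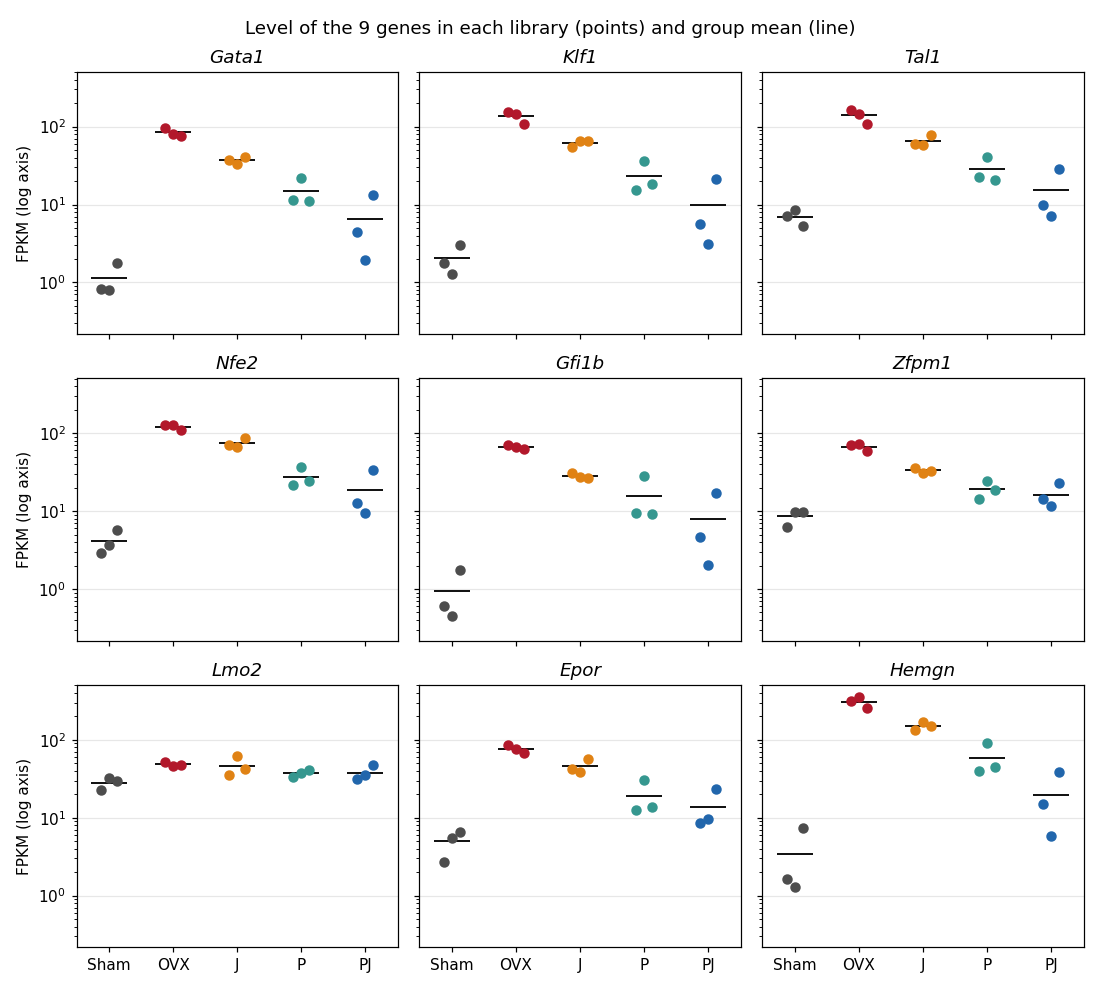
FPKM of each of the 9 genes (log axis, the same in all panels) in the 15 libraries, with 1 point per library and a line at the group mean. In 8 genes the group means fall in the order OVX, J, P, PJ and Sham, while the points of Lmo2 stay between 22.5 and 61.5 FPKM in all groups.

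The order of the group means was Sham, PJ, P, J and OVX from low to high in 8 members. In Lmo2 it was Sham, P, PJ, J and OVX. Between neighbours in that order, J lay below OVX without overlap in 8 members, beside 14.3% of all genes tested, and P below J in 7, beside 12.9%. PJ lay above Sham in 6, beside 26.8%, and below P in Hemgn alone, beside 1.22%. The tests of these neighbouring groups are given with the comparisons.

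OVX against Sham asks what loss of the ovaries did to these genes. All 9 members rose in OVX, and in all 9 each OVX library was above each Sham library. Among all genes tested, 25.3% were called higher and 31.6% had all OVX libraries above all Sham libraries. The median log2 fold change of the members was 4.62, beside -0.04 for all genes tested. Fold changes here are differences on the log2(FPKM + 1) scale, which understates the change of genes as low as Gata1 and Gfi1b in Sham. A gene is called when its p-value, from limma with Benjamini-Hochberg adjustment over all genes tested, is under 0.05. The log2 fold change was 6.38 ± 0.58 (SE) for Hemgn (adjusted p = 2.18e-06), 5.52 ± 0.49 for Klf1 (1.85e-06), 5.35 ± 0.44 for Gata1 (1.04e-06) and 5.19 ± 0.54 for Gfi1b (6.21e-06). It was 4.62 ± 0.36 for Nfe2 (7.59e-07), 4.14 ± 0.40 for Tal1 (3.37e-06), 3.76 ± 0.39 for Epor (6.21e-06) and 2.85 ± 0.24 for Zfpm1 (1.38e-06). Lmo2 changed least among the members, by 0.79 ± 0.20 (adjusted p = 0.00527), and its 95% interval of 0.35 to 1.24 lay below the intervals of the other 8. All 9 calls held without any 1 OVX or Sham library and under every other setting tried. Markers of other cell types moved as well, with values given after the comparisons, and their part in these differences was not tested.

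J against OVX asks whether the walnut extract changed the levels. In 8 members every J library was below every OVX library, which 14.3% of all genes tested showed, but Zfpm1 alone was called lower. Of all genes tested, 2.79% were called lower and 3.27% higher, which became 6.57% and 2.91% with median-ratio scaling. Zfpm1 fell by 0.99 on the log2 scale (SE 0.24, adjusted p = 0.0354), with a mean FPKM of 33.3 ± 2.39 in J and 67.4 ± 7.54 in OVX (SD, n = 3). The differences of the others that did not overlap ran from -0.72 ± 0.36 for Nfe2 (adjusted p = 0.24) to -1.20 ± 0.54 for Gfi1b (0.19). Their mean FPKM in J was 42.6% (Gfi1b) to 60.7% (Nfe2) of that in OVX. The 95% intervals left out 0 for Gata1 (-2.10 to -0.20), Klf1 (-2.17 to -0.05), Tal1 (-1.95 to -0.22) and Gfi1b (-2.38 to -0.03), which are unadjusted. For Epor the interval was -1.59 to 0.11 and for Hemgn -2.28 to 0.24. For Lmo2 the difference was -0.11 ± 0.20, with an interval of -0.55 to 0.34. The number of members called differed between settings: it was 0 with no filter on low values, 8 when only J and OVX were fitted, 7 with libraries weighted by their quality, and 6 without P 2 and PJ 3, which are in neither group but enter the shared spread. It was 0 without any 1 of the J libraries, OVX 1 or OVX 2.

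The Psoralea extract is addressed by P against OVX. All members but Lmo2 fell, 8 of 9, beside 15.0% of all genes tested that were called lower and 24.2% called higher (23.5% and 19.4% with median-ratio scaling). All 9 had every P library below every OVX library, which 20.8% of genes showed. The median log2 fold change of the members was -2.22, beside 0.12 for all genes. The log2 fold change was -2.57 ± 0.49 for Klf1 (adjusted p = 0.00148), -2.49 ± 0.44 for Gata1 (8.73e-04), -2.47 ± 0.58 for Hemgn (0.00525), -2.31 ± 0.40 for Tal1 (7.76e-04) and -2.22 ± 0.54 for Gfi1b (0.00637). It was -2.15 ± 0.36 for Nfe2 (6.82e-04), -2.08 ± 0.39 for Epor (0.00137) and -1.79 ± 0.24 for Zfpm1 (1.92e-04). For these 8 the mean FPKM in P was 17.1% (Klf1) to 28.3% (Zfpm1) of that in OVX. Without P 2 it was 12.5% (Klf1) to 24.7% (Zfpm1), and Gfi1b moved from 23.4% to 13.9%. The difference of Lmo2 was -0.37 ± 0.20 (adjusted p = 0.172, interval -0.81 to 0.07), and its mean FPKM was 77.0% of that in OVX.

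PJ against OVX addresses the combination. The same 8 members fell and did not overlap with OVX, beside 14.6% of genes called lower and 19.2% with no overlap in that direction. With median-ratio scaling 24.8% of genes were called lower and 20.8% higher, where 29.8% had been called higher before it. The median was -3.32, beside 0.22 for all genes tested. Hemgn changed by -4.24 ± 0.58 (adjusted p = 1.31e-04), Klf1 by -3.99 ± 0.49 (6.28e-05), Gata1 by -3.80 ± 0.44 (4.18e-05), Tal1 by -3.32 ± 0.40 (5.47e-05) and Gfi1b by -3.32 ± 0.54 (4.10e-04). Nfe2 changed by -2.84 ± 0.36 (8.04e-05), Epor by -2.53 ± 0.39 (3.04e-04) and Zfpm1 by -2.04 ± 0.24 (5.34e-05). The mean FPKM in PJ was from 6.40% (Hemgn) to 24.2% (Zfpm1) of that in OVX. Without PJ 3 it was 3.24% (Klf1) to 19.1% (Zfpm1), with Hemgn at 3.35%. For Lmo2 the difference was -0.38 ± 0.20 (adjusted p = 0.154), which was called under median-ratio scaling (-0.66, adjusted p = 0.027) and with library weights (-0.56, adjusted p = 0.00386). The 3 treated groups were each set against the same OVX libraries, so their differences are not independent of one another. Without P 2 and PJ 3, the change in PJ was -4.88 for Hemgn and -4.41 for Gata1, and in P it was -2.83 for Hemgn and -2.79 for Gata1. Both libraries were the highest of their groups for these genes, so leaving them out was bound to enlarge the fall.

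**Figure D2:**
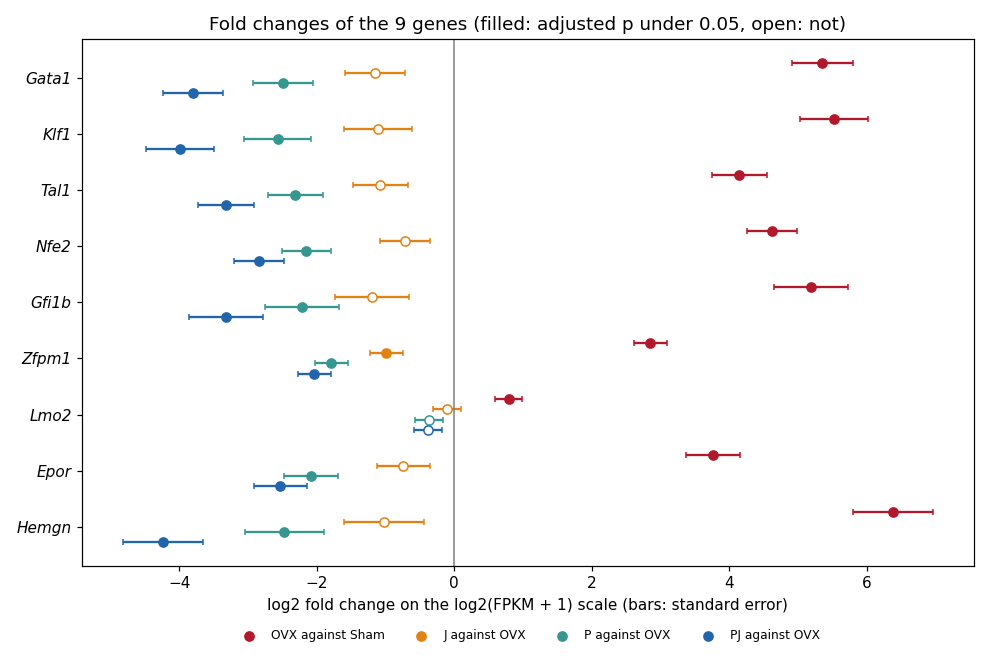
Difference on the log2(FPKM + 1) scale (horizontal axis) for each of the 9 genes in OVX against Sham and in J, P and PJ against OVX. Points are estimates of the limma fit with bars of 1 standard error, filled where the adjusted p was under 0.05. The red points on the right run from 0.79 for Lmo2 to 6.38 for Hemgn, and for the 8 genes other than Lmo2 the points on the left lie farther from 0 in P than in J and farther in PJ than in P.

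Set against Sham, the treated groups differed in how many members were higher. In J all 9 rose and did not overlap with Sham, beside 23.0% of genes called higher and 28.3% with no overlap in that direction, with a range from 0.69 ± 0.20 for Lmo2 (adjusted p = 0.0156) to 5.36 ± 0.58 for Hemgn. After rescaling to TPM 15.6% of genes were called higher and 23.0% lower, where 20.9% had been called lower before it. The call of Lmo2 in J was lost without Sham 1, without J 2, after rescaling to TPM, with only J and Sham fitted, and with library weights. In P all but Lmo2 rose, 8 of 9, beside 5.95% of genes called, and all 9 were without overlap, beside 15.4%. The changes in P ran from 1.06 ± 0.24 for Zfpm1 (adjusted p = 0.0198) to 3.92 ± 0.58 for Hemgn (0.00137). Lmo2 differed by 0.42 ± 0.20 between P and Sham (adjusted p = 0.229). Without Sham 1, 5 members were called in P, as Tal1, Zfpm1 and Epor were not, and 7 were called without Sham 2 (not Epor) or without P 3 (not Zfpm1). With only P and Sham fitted 6 were called, without Zfpm1 and Epor.

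In PJ 5 members were called higher than in Sham, beside 7.72% of genes, and 6 were without overlap, beside 26.8%. Those called were Hemgn at 2.14 ± 0.58 (adjusted p = 0.0356), Gfi1b at 1.87 ± 0.54 (0.045), Nfe2 at 1.78 ± 0.36 (0.0115), Gata1 at 1.55 ± 0.44 (0.0415) and Zfpm1 at 0.81 ± 0.24 (0.0499). The differences of the remaining members were 1.52 ± 0.49 for Klf1 (adjusted p = 0.0621), 1.24 ± 0.39 for Epor (0.0595), 0.81 ± 0.40 for Tal1 (0.183) and 0.42 ± 0.20 for Lmo2 (0.183). These calls were close to the threshold. Their number fell to 0 without Sham 1 or without Sham 2, and to 1 without PJ 1 or without PJ 3. It also fell to 1 with median-ratio scaling, with no filter, or with voom on recovered reads, and was 3 without both P 2 and PJ 3. It was 0 with only PJ and Sham fitted and 3 after rescaling without mitochondrial and globin genes, and it rose to 6 with a pseudocount of 0.1 and to 7 after rescaling to TPM or with library weights. Of all genes, 3.48% were called lower, and median-ratio scaling gave 5.63% higher and 5.78% lower.

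The extract groups differ in dose as well as in extract, with 1.6 g per kg per day in J, 2.4 in P and 4.0 in PJ. Among the extracts, PJ was lower than J in 8 members, all but Lmo2, both by the test (5.88% of genes called lower and 8.38% higher) and without overlap (10.5%). Those shares of calls were 10.1% and 4.59% with median-ratio scaling and 3.93% and 11.8% after rescaling to TPM. Their changes ran from -1.04 ± 0.24 for Zfpm1 (adjusted p = 0.0176) to -3.22 ± 0.58 for Hemgn (0.00673), and the mean FPKM of Hemgn in PJ was 13.1% of that in J (6.87% without PJ 3). Without PJ 1 or without PJ 2, 5 members were called, and 6 or 7 without a J library. With only PJ and J fitted 6 were called, without Gfi1b and Zfpm1. P was called lower than J in Nfe2 alone, with a change of -1.43 ± 0.36 (adjusted p = 0.0421), beside 3.05% of genes called lower and 4.37% higher. Those shares were 5.85% and 3.60% with median-ratio scaling and 0.479% and 1.80% after rescaling to TPM. All members but Gfi1b and Lmo2, 7 of 9, had every P library below every J library, beside 12.9% of genes. Without P 2 the count of calls was 3 (Nfe2, Zfpm1 and Epor), without both P 2 and PJ 3 it was 8, and without any other P or J library it was 0. It was also 8 with library weights, and 0 with a pseudocount of 0.1, with no filter, after rescaling to TPM or with only P and J fitted.

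PJ against P gave no call: limma called 0 of the 9 members and 0 of all 14416 genes (0.00% lower), voom on recovered reads also called none of the 9, and 4 members and 296 genes had an unadjusted p under 0.05. Those 4 were Gata1, Klf1, Tal1 and Hemgn, with 95% intervals of -2.26 to -0.35, -2.49 to -0.36, -1.88 to -0.15 and -3.03 to -0.51. Hemgn was also the single member with every PJ library below every P library, which 1.22% of genes showed. Its mean FPKM in PJ was 33.8% of that in P, and 17.7% without PJ 3. For Zfpm1 the interval was -0.77 to 0.28, for Epor -1.30 to 0.40 and for Lmo2 -0.45 to 0.44. The doses of these groups differ, as PJ received 4.0 g per kg per day of the combination and P 2.4 of the single extract.

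Within a library, the order of the members by FPKM also changed between groups. Lmo2 had the highest FPKM of the 9 in all 3 Sham and all 3 PJ libraries and the lowest in all 3 OVX libraries. Against the mean log2(FPKM + 1) of the 9 genes in the same library, Lmo2 stood at 2.48 in Sham (range 2.17 to 2.79), -1.02 in OVX (-1.14 to -0.86), -0.22 in J (-0.49 to 0.23), 0.66 in P (0.10 to 1.02) and 1.55 in PJ (0.85 to 2.22). Hemgn held the highest FPKM in all OVX, J and P libraries and stood at 1.61 against that mean in OVX and at -0.48 in Sham. Zfpm1 had a smaller shift of the same direction as Lmo2, from 0.88 in Sham to -0.56 in OVX. Gata1 was below the mean of the 9 in every group, at -1.30 in Sham and -0.25 in OVX.

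**Figure D3:**
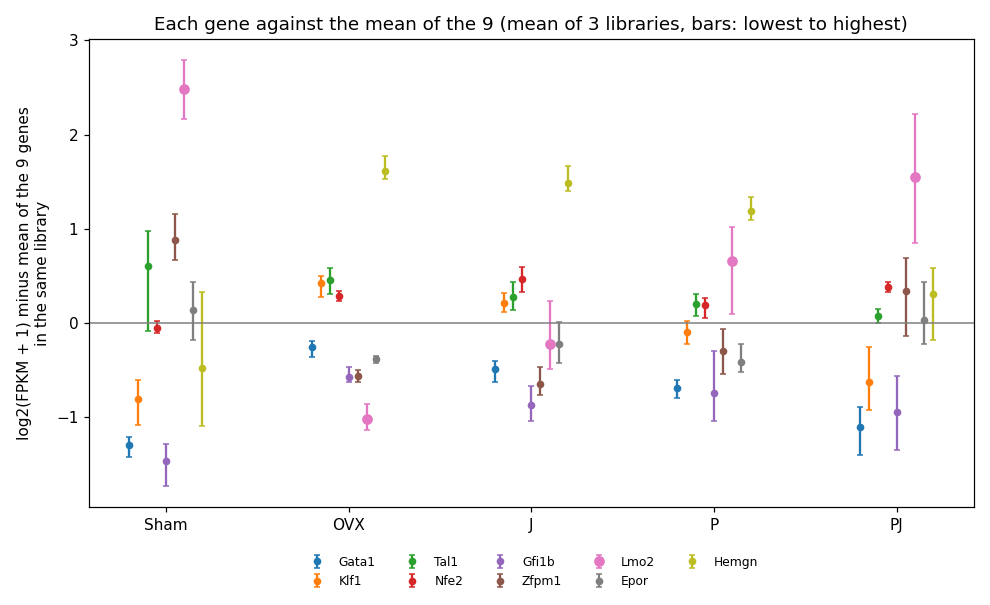
Level of each gene on the log2(FPKM + 1) scale minus the mean of the 9 genes in the same library (vertical axis), by group. Points are means of 3 libraries and bars run from the lowest to the highest library. Lmo2, drawn larger, lies at 2.48 in Sham and -1.02 in OVX, and Hemgn lies at 1.61 in OVX.

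Products of red cells that these factors control were taken from a list of 38 genes, of which 35 were matched and tested. Beside them, 25.3% of all genes tested were called higher in OVX against Sham. In J, P and PJ against OVX 2.79%, 15.0% and 14.6% of all genes were called lower. In OVX against Sham 34 of the 35 rose and none fell, with a median of 5.15. In P against OVX and in PJ against OVX 34 of 35 fell, with medians of -2.47 and -3.83, and in J against OVX 5 of 35 fell, with a median of -1.02. Without P 2 and PJ 3, 34 rose in OVX, and 21, 35 and 34 fell in J, P and PJ. The gene not called in OVX, P or PJ was Aqp1, a water channel also made by vessel cells, named here after its values were seen, which differed by 0.11 ± 0.44 between OVX and Sham. The band 3 anion exchanger Slc4a1 rose by 6.79 ± 0.57 in OVX (adjusted p = 1.27e-06) and fell by 4.42 (SE 0.57) in PJ against OVX. Ahsp, which stabilises alpha-globin, rose by 7.01 ± 0.65. Alas2, the red cell enzyme that starts heme synthesis, rose by 5.46 ± 0.60 and changed by -4.10 ± 0.60 in PJ against OVX. Among the list genes of smallest p in OVX against Sham were Bpgm (3.96 ± 0.26), which acts in oxygen release, and Cpox (4.03 ± 0.28), which acts in heme synthesis. The summed FPKM of the list was 913.1 to 3058 in Sham, 36931 to 48388 in OVX, 20725 to 24870 in J, 4274 to 11415 in P and 2025 to 7103 in PJ.

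Partners of the members and other regulators of red cells had a smaller median difference. Of 25 genes tested from a list of 26, 18 rose and 1 fell in OVX against Sham, with a median of 0.88, which compares with 4.62 for the members. In J 2 of 25 fell, in P 12 fell, and in PJ 10 fell and 1 rose. The shares of all genes called lower were 2.79% in J, 15.0% in P and 14.6% in PJ, with 29.8% called higher in PJ. In OVX against Sham 25.3% of all genes were called higher and 28.9% lower. Gata2, which precedes Gata1 in progenitors, differed by 0.59 ± 0.35 in OVX against Sham (adjusted p = 0.17) and was called in none of the 4 comparisons named. Its level was 6.05 to 11.8 FPKM in Sham and 11.7 to 13.7 in OVX. Ldb1, which binds Lmo2, rose by 0.83 ± 0.23 (adjusted p = 0.00805), and Tcf3, a partner of Tal1, by 1.84 ± 0.31 (2.50e-04). Spi1, a factor of myeloid and B cells that opposes Gata1, rose by 1.32 ± 0.32 (adjusted p = 0.00391). The smallest p values belonged to the E2F factors E2f8 (4.14 ± 0.23), E2f2 (4.38 ± 0.31) and E2f4 (2.06 ± 0.18), which control cell division and, in red cell precursors, its slowing.

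Genes of erythropoietin signalling were uneven. Of 19 tested from a list of 20, 11 rose and 1 fell in OVX against Sham, with a median of 0.77. In J limma called 0 of the 19, as did voom, and 6 had an unadjusted p under 0.05, while without P 2 and PJ 3, 1 was called higher and 1 lower. In P 5 fell and 1 rose, and in PJ 5 fell and 3 rose, which without P 2 and PJ 3 became 5 and 4 in P and 6 and 3 in PJ. Among all genes in the main fit, 15.0% were called lower and 24.2% higher in P, and 14.6% and 29.8% in PJ. The shares in J were 2.79% lower and 3.27% higher, and in OVX against Sham 28.9% and 25.3%. Jak2, the kinase bound to Epor, rose by 0.67 ± 0.22 in OVX (adjusted p = 0.0217), compared with 3.76 ± 0.39 for Epor itself. Stat5a rose by 0.93 ± 0.19 (adjusted p = 0.0011), and Stat5b differed by 0.13 ± 0.20 (0.617). None of these 3 was called in J, P or PJ against OVX. The genes of smallest p in OVX against Sham were the transferrin receptor Tfrc (3.57 ± 0.35), the survival gene Bcl2l1 (1.44 ± 0.15) and Tfr2 (3.66 ± 0.46), a transferrin receptor that also associates with Epor. In PJ against OVX the change was -1.32 ± 0.15 for Bcl2l1, -3.06 ± 0.46 for Tfr2 and -2.07 ± 0.35 for Tfrc.

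Lists of other cells in which some of the members act were counted in the same way. As for the other lists, 25.3% of all genes were called higher in OVX against Sham. The shares called lower in J, P and PJ against OVX were 2.79%, 15.0% and 14.6%. Of the megakaryocyte and platelet markers, 16 of 16 tested rose in OVX against Sham, 5 fell in J (13 without P 2 and PJ 3), 14 in P and 14 in PJ. Their summed FPKM was 93.4 to 248.2 in Sham, 2220 to 3509 in OVX, 965.0 to 1032 in J, 417.5 to 704.4 in P and 277.0 to 615.2 in PJ. Gp6, a collagen receptor of platelets, rose by 4.70 ± 0.33 in OVX, Tubb1, a platelet tubulin, by 5.37 ± 0.39 and Gp1ba by 4.16 ± 0.32, while Gp1bb was at 0 in all libraries. Markers of mast cells, basophils and eosinophils were called higher in OVX in 8 of 12, and lower in P in 5 and in PJ in 4, or in 4 and 7 without P 2 and PJ 3. Without those libraries, 2 of these markers were called higher in P. In J limma called 0 of the 12, as did voom, and 1 had an unadjusted p under 0.05. Their summed FPKM was 8.67 to 21.3 in Sham and 226.0 to 289.5 in OVX. In P it ran from 45.9 to 495.4 and in PJ from 139.8 to 350.0, with P 3 and PJ 1 above every OVX library. Endothelial markers, from the vessel cells in which Tal1 and Lmo2 also act, went the other way: 15 of 16 fell in OVX against Sham, and 3, 14 and 14 rose in J, P and PJ against OVX. Of all genes tested, 28.9% were called lower in OVX against Sham, and 3.27%, 24.2% and 29.8% were called higher in J, P and PJ against OVX. Their summed FPKM was 653.2 to 1062 in Sham and 117.8 to 162.9 in OVX. How far each cell type contributed to the level of a member was not tested.

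Lists of further cell types were set beside the 25.3% of all genes called higher and 28.9% called lower in OVX against Sham. Those shares were 29.8% and 14.6% in PJ against OVX, and 24.2% and 15.0% in P against OVX. In OVX against Sham 11 of 11 neutrophil markers and 12 of 12 cell cycle genes rose, as did 6 of 8 B cell markers, while 7 of 7 cartilage markers (2 by voom), 1 of 12 bone markers and 1 of 7 muscle markers fell. Of 8 adipocyte markers limma called 0, as did voom, and 1 had an unadjusted p under 0.05. Of 8 progenitor markers, 3 rose and 5 fell. In PJ against OVX 11 of 11 neutrophil markers and 12 of 12 cell cycle genes fell, and 8 of 8 adipocyte and 6 of 12 bone markers rose (11 of 12 bone markers without P 2 and PJ 3). Of 8 B cell markers 1 was called higher in PJ against OVX, and in P against OVX limma and voom called 0, with 1 at an unadjusted p under 0.05. The neutrophil sum was 291.0 to 664.9 FPKM in Sham and 20780 to 24158 in OVX. The part of these lists in the members' changes was not tested.

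**Figure D4:**
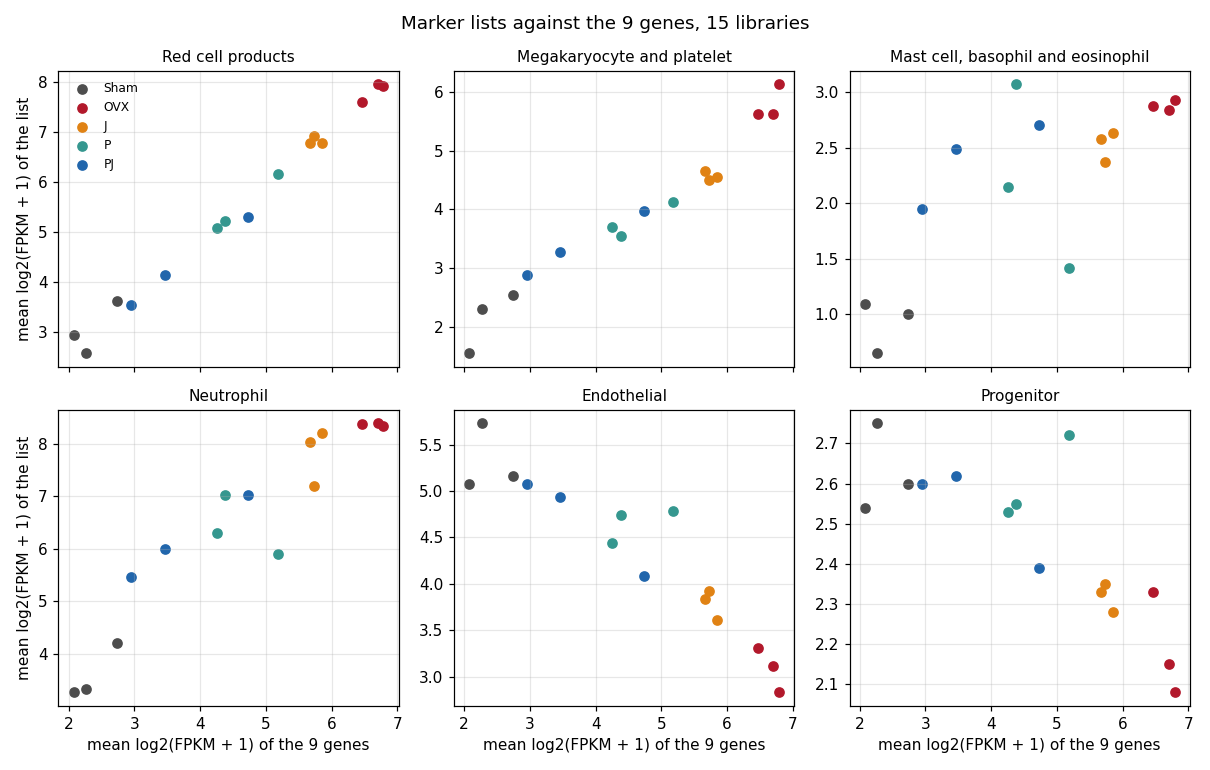
Mean log2(FPKM + 1) of 6 marker lists (vertical axes, which differ) against the mean of the 9 genes (horizontal axis), with 1 point per library coloured by group. Sham libraries lie at the left and OVX libraries at the right in every panel, with red cell, megakaryocyte and neutrophil lists highest in OVX and the endothelial list lowest there.

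Likeness of other genes to the members was Pearson's r on the log2(FPKM + 1) scale over 15 libraries that share the 5 groups, so it mainly follows the group differences and is given as a description. To the mean of the 9 standardised profiles, Tent5c came closest (r = 0.994), followed by Trim10 (0.993), Treml1 (0.992), a receptor of platelets, and Alad (0.991), an enzyme of heme synthesis. Cd52, Rhag, Add2, Pf4 and Slc14a1 were also among the 10 closest, with r from 0.989 to 0.990. Among the closest to Hemgn were Ahsp (0.998) and Slc4a1 (0.997), and among the closest to Klf1 were Add2 and Trim10 (both 0.997). Add2 and Trim10 (both 0.995) were among the closest to Gata1, and Rhag (0.992), Slc4a1 (0.991) and Cd52 (0.990) were closest to Gfi1b. Tal1 was followed most closely by Dhrs11 (0.992), Myo5c (0.991) and Slc6a20a (0.990), and Nfe2 by Tuba4a (0.994), Rbm38 and Tk1 (both 0.993). Epor lay nearest to the platelet genes Gp9 (0.992) and Treml1 (0.988) and to Tent5c (0.988), and Zfpm1 to Slc7a1 (0.991), Fbxo7 (0.989) and F2rl3 (0.988). No gene came as close to Lmo2, for which Rhof (0.917), Cnr2 (0.913) and Tmem163 (0.883) led. Among the members themselves the 28 pairs without Lmo2 had r of 0.95 to 0.997 and the 8 pairs with Lmo2 had r of 0.78 to 0.82.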

How the data were processed

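Rat femur RNA with a poly(A) tail was sequenced in 15 libraries, and groups were read from the titles and treatment labels. TRIzol extraction and TruSeq RNA library preparation are stated per the labels' protocols, and how strand was treated was not stated in the sources used here. The submitters' processing notes list fastp 0.23.4, STAR 2.7.11a, featureCounts 2.0.6 and genome build mRatBN7.2. The authors deposited 1 FPKM value per gene and library, in a column whose header calls it a count, and a second column was empty in all 15 files. Whole reads were recovered from the steps between low values for 99.8% of 24207 genes above 0. The recovered genes held 61.3% to 83.2% of a library's FPKM and 76.0% (P 2) to 89.4% (PJ 1) of its reads. The voom fit used 14371 of the 14416 genes tested and left out the genes not recovered. As 64.2% of the low counts (1 to 20 reads) were even, a fragment may have been counted at each of its ends.

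Log2 values with a pseudocount of 1 FPKM were used, and genes averaging less than 1 FPKM were left out. A model of the 5 groups over all 15 libraries, with 10 residual degrees of freedom, was fitted by limma 3.58.1 (R 4.3.3). Tests were two-sided, adjusted by Benjamini-Hochberg over 14416 genes, with a threshold of 0.05, and the fit was tested on simulated data. Named in the text are the 9 members, of each list described by name the 3 genes of smallest p and known partners of members, and the genes most highly correlated with each member or with their mean. Some genes that this rule names are not reported here. The members and the 14 gene lists (red cell products, partners, erythropoietin signalling, megakaryocyte, mast cell with basophil and eosinophil, endothelial, progenitor, neutrophil, B cell, cell cycle, bone, adipocyte, cartilage and muscle) were chosen with earlier results of these data known. Of their 209 genes, 204 were matched by the symbols in the files. Promoter windows are from RefSeq, build GRCr8, which differs from the build of the files. Alternatives covered the pseudocount, the filter, the scaling, voom on recovered reads, library weights, a replicate block, models of 2 groups at a time, and omission of single libraries. The omission of P 2 and PJ 3 together was added after seeing the data.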

Additional observations from a re-analysis of the deposited data

How the results depend on the processing

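Direction held for every member in all 10 comparisons under every alternative run, except for Lmo2 in PJ against P, which moved from -0.01 to 0.09 under rescaling to TPM and to 0.00046, 0.06, 0.11 and 0.04 without P 2, P 3, PJ 1 and PJ 2 (range without single libraries -0.16 to 0.11), and in J against OVX, which moved from -0.11 to 0.07 without J 1 (range -0.32 to 0.07). Of the members' alternative values, 1400 kept their side of the threshold and direction, 81 lost the call, 43 gained it and 6 reversed. In J against OVX 1 member was called: 0 with no filter, 8 when only the groups compared were fitted, 7 with array weights, 6 with P 2 and PJ 3 left out together (added after seeing the data), and 0 to 1 without single libraries. In J against Sham 9 were called: 8 with TPM, 8 with only the groups compared, 8 with array weights, and 8 to 9 without single libraries. In P against Sham 8 were called: 6 with only the groups compared, and 5 to 8 without single libraries. In PJ against Sham 5 were called: 1 with no filter, 1 with median-ratio scaling, 3 without mitochondrial and globin genes, 0 with only the groups compared, 1 with voom, 3 without P 2 and PJ 3, 6 with a pseudocount of 0.1, 7 with TPM, 7 with array weights, and 0 to 6 without single libraries. In P against J 1 was called: 0 with a pseudocount of 0.1, 0 with no filter, 0 with TPM, 0 with only the groups compared, 8 with array weights, 8 without P 2 and PJ 3, and 0 to 3 without single libraries. In PJ against J 8 were called: 6 with only the groups compared, and 5 to 8 without single libraries. The cause of these changes was not tested. Median-ratio scaling moved the median of all genes in PJ against OVX by -0.25. With the replicate number as a block, 3 members were called in PJ against Sham and no other count changed. The labels do not state that equal numbers pair the libraries. Of 30 same-numbered pairs, 9 had deviations correlated above 0.1 (range -0.41 to 0.49). With 3 libraries per group, these values cannot show whether the libraries are paired. In Sham the lowest members rest on few reads (28 for Gfi1b in Sham 2), which limits the precision of their fold changes.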
